A study of Mus musculus with 18 samples.

Results

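The transcripts of 10 genes of the p53 pathway, Trp53 and 9 genes that p53 is known to control (Cdkn1a, Mdm2, Bax, Bbc3, Pmaip1, Ccng1, Phlda3, Trp53inp1 and Fas), were followed at 14.5 dpc (days post coitus) in RNA from whole mouse embryonic lungs. They were found by their symbols in the gene column, and all 10 of 10 were present among the 23420 rows of each table. Shh-Cre, a recombinase made under control of the Shh gene and so in epithelial cells, removed Rptor, Tfam or Cox10 there, and the surrounding tissue was not targeted. Deficient lungs were Rptor f/f; ShhCre/+, Tfam f/f; ShhCre/+ or Cox10 f/f; ShhCre/+. Control lungs were littermates with 1 floxed allele (Rptor f/+; ShhCre/+, Tfam f/+; ShhCre/+ or Cox10 f/+; ShhCre/+), so every group carried ShhCre and at least 1 floxed allele. There were 3 deficient and 3 control samples in each line, 18 in all, and each line was scaled in a table of its own. The question was whether loss of mTORC1 (Rptor), of the factor that maintains mitochondrial DNA (Tfam) or of a cytochrome c oxidase assembly enzyme (Cox10) went with a change in p53 target and death genes.

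p53 is a transcription factor that MDM2, a ubiquitin ligase, marks for degradation, so its activity is set mainly at the protein level. When DNA damage, ribosomal stress or other stress frees it from MDM2, p53 binds pairs of a short decamer and raises transcription of genes that stop the cell cycle, repair DNA, curb growth signals or promote apoptosis. Mdm2 is itself a target, which closes a feedback loop. In the embryonic lung the airway epithelium is embedded in mesenchyme with endothelium and leukocytes, and all of these cells contributed RNA to a whole-lung sample. Fewer cells of a type and less RNA per cell cannot be told apart in such samples.

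Promoter sequences from RefSeq (GRCm38.p6) were used, 11 windows of 300 bases that matched 8 of the 10 genes. The 4 below are shown because they belong to a target that rose (Ccng1, Fas), one with a positive estimate in every line (Cdkn1a) and the feedback target (Mdm2). Each runs 5′ to 3′ over the 250 bases before the start site, and capitals mark matches to the p53 decamer consensus on either strand. A further Cdkn1a window, starting at chr17:29093519, held no match and is not printed.
Ccng1, chr11:40755287-40755536, minus strand: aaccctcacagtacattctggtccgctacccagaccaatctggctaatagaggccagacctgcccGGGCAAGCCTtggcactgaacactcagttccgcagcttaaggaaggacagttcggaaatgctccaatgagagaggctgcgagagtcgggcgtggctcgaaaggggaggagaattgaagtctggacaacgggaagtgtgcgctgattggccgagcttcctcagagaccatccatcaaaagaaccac
Cdkn1a, chr17:29090729-29090978, plus strand: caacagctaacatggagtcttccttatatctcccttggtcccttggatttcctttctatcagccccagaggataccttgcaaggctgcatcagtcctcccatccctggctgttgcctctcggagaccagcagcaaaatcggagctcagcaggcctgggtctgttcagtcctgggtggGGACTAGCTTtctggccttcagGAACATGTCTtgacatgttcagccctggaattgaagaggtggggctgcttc
Mdm2, chr10:117710759-117711008, minus strand: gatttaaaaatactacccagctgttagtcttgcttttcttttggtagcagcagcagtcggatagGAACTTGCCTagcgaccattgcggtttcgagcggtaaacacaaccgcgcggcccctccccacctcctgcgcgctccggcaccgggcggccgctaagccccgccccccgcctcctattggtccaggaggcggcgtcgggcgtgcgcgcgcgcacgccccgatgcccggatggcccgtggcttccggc
Fas, chr19:34290409-34290658, plus strand: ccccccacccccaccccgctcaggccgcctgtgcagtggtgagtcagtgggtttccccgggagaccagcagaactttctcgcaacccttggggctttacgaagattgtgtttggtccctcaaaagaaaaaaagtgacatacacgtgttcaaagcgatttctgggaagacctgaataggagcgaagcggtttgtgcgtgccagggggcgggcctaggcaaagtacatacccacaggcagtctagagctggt

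The decamer consensus was matched in 5 of the 11 windows, those of Bax, Mdm2, Ccng1, Trp53 and 1 of the 2 windows of Cdkn1a, against 8.36% of all 32851 promoter windows. TGATGNAA, the motif bound by the stress factor ATF4, was in 3.97% of all windows and in 0 of the 11. A match is a description of letters, and p53 also acts from introns and distant sites that these windows do not cover.

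Normalised read totals were 27727202 to 29611064 per sample, and replicates of a group correlated at 0.991 to 0.995 over genes. The transcripts of the deleted genes did not check the labels, since the deletion was epithelial and controls had 1 floxed allele: Rptor, Tfam and Cox10 changed by -0.066, -0.12 and -0.0055 (log2) in their own lines, with overlapping groups. Epithelial markers were present in all samples, and 10 of 12 were lower in Rptor-deficient lungs, with summed levels of 16866 to 24015 normalised reads against 42381 to 48730 in controls. In the same lungs 7 of 10 mesenchymal markers were higher (420873 to 451280 against 223455 to 253310), as were 7 of 8 endothelial markers (44696 to 51169 against 36002 to 37316) and 8 of 8 leukocyte markers (4630 to 5431 against 2572 to 2827). No marker of these 4 lists was at 0 in any sample. Deficient replicate 3 of the Cox10 line stood apart from its group, with an endothelial sum of 40881 against 25334 to 28615 in the other 5 samples of the line. With Tfam deleted 4 of 12 epithelial markers were lower (2.63% of all genes were), and 9 had an unadjusted p below 0.05 (17.4% of all genes). The epithelial sums, 30765 to 35294 against 39588 to 41838 in controls, did not overlap. Of the 10 mesenchymal, 8 endothelial and 8 leukocyte markers 0 passed by limma, with 4, 3 and 5 at an unadjusted p below 0.05. With Cox10 deleted 1 of 12 epithelial markers was lower (0.475% of all genes passed), and 8 had an unadjusted p below 0.05 (13% of all genes). Without deficient replicate 3, 9 of 12 were lower, where 1.72% of all genes passed. With all samples 0 mesenchymal, endothelial or leukocyte markers passed by limma in the Cox10 line, with 4, 0 and 1 at an unadjusted p below 0.05. The part of these shifts in the values below was not tested.

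In Rptor-deficient lungs 5 of the 10 genes passed the threshold (limma, adjusted p below 0.05 over all genes tested): Fas, Pmaip1, Ccng1 and Trp53inp1 were higher and Trp53 was lower. Of all 14940 genes tested in this line 34.8% passed (16.6% higher, 18.2% lower), and the count of 5 in 10 is to be read against that share. In Tfam-deficient lungs 1 of 10, Ccng1, passed, against 4.66% of 15053 genes (2.03% higher, 2.63% lower). In Cox10-deficient lungs 0 of 10 passed by limma, against 0.475% of 14937 genes, and 1 of 10 (Fas) had an unadjusted p below 0.05, against 13% of all genes. At an unadjusted p below 0.05 the Rptor and Tfam lines had 5 and 5 of the 10 genes, against 45.6% and 17.4% of all genes. The median log2 fold change of the 10 genes was 0.25 with Rptor deleted, 0.16 with Tfam deleted and 0.086 with Cox10 deleted, beside 0.0083, 0.00098 and 0.0014 for all genes tested. p-values measure the spread between these samples, and no source states whether each sample at 14.5 dpc is a single lung.

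**Figure D1:**
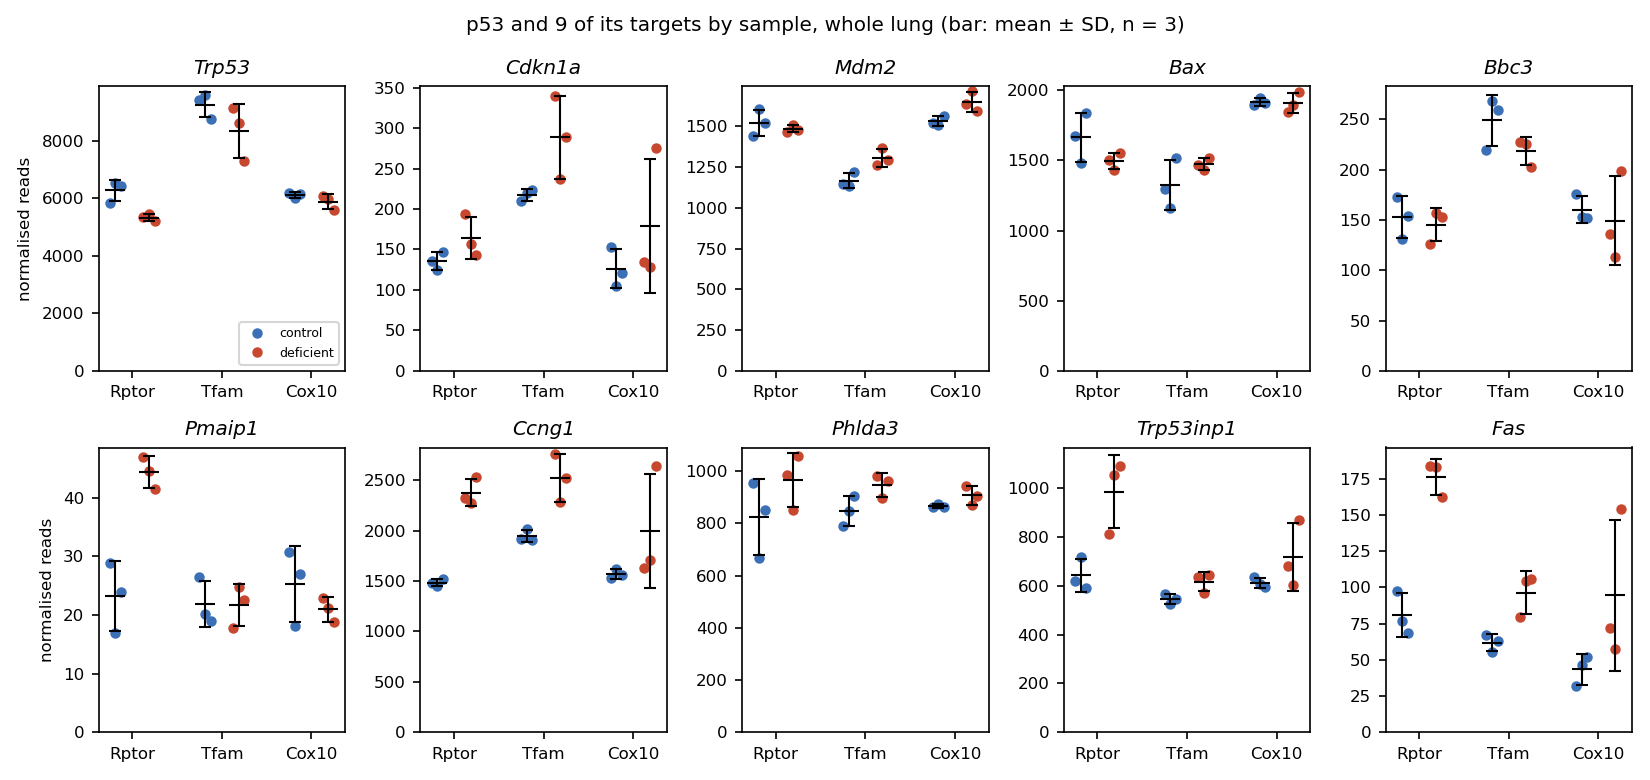
Normalised reads (vertical axes, from 0) of each of the 10 genes in each sample, by line, with control lungs in blue and deficient lungs in red; bars give the mean ± SD of 3 samples. Ccng1 and Fas lie above the controls in all 3 lines, Pmaip1 only in the Rptor line, and a single Cox10-deficient sample is far above the others of its group for Cdkn1a, Ccng1 and Fas.

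Trp53 (chr11:69580359-69591873, plus strand), which encodes p53 itself, was the only one of the 10 to fall past the threshold. In the Rptor line it had 5850, 6538 and 6433 normalised reads in controls and 5336, 5456 and 5199 in deficient lungs. All 3 deficient samples lay below all 3 controls, and the log2 fold change was -0.23 (SE 0.058, adjusted p = 0.0148 by limma). This call was lost without control replicate 2 (adjusted p = 0.0571) or control replicate 3 (adjusted p = 0.0590). In the Tfam line Trp53 had 9398, 9576 and 8751 in controls and 9119, 8617 and 7287 in deficient lungs, with overlapping groups and a log2 fold change of -0.15 (95% confidence interval -0.33 to 0.028; -0.22 to -0.059 when 1 sample was left out). The Cox10 line gave 6189, 5993 and 6139 in controls and 6078, 5973 and 5584 in deficient lungs, a log2 fold change of -0.056 (-0.17 to 0.057; -0.080 to -0.019 when 1 sample was left out).

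Mdm2, the ligase that restrains p53 and is induced by it, passed the threshold in no line. Controls of the Rptor line had 1444, 1604 and 1519 normalised reads and deficient lungs 1468, 1510 and 1480, so the deficient values lay inside the control range. The log2 fold change was -0.033, with a 95% interval of -0.17 to 0.11. In the Tfam line controls had 1148, 1132 and 1220 and deficient lungs 1262, 1369 and 1293. The groups did not overlap, yet the log2 fold change of 0.16 (0.025 to 0.30) did not pass (limma adjusted p = 0.201). In the Cox10 line 1523, 1507 and 1567 in controls stood beside 1638, 1719 and 1595 in deficient lungs, again without overlap, with a log2 fold change of 0.11 (-0.012 to 0.22; limma adjusted p = 0.423). Values without overlap were found for 22.8% of all genes of the Tfam line, where 5 of the 10 genes had them, and for 21.3% of those of the Cox10 line, where 3 did. In the Rptor line the count was 5 of 10, against 50.3% of all genes.

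Ccng1 (chr11:40748552-40755311, minus strand) encodes cyclin G1, a target that recruits a phosphatase to MDM2, and it rose in both the Rptor and the Tfam line. Rptor-line controls had 1484, 1449 and 1516 normalised reads and deficient lungs 2324, 2276 and 2529. The gap between the groups was far wider than the spread inside either, and the log2 fold change was 0.68 (SE 0.061, adjusted p = 0.000180 by limma), or 160% of the control mean. In the Tfam line controls had 1919, 2015 and 1909 and deficient lungs 2756, 2283 and 2521, again without overlap. The log2 fold change was 0.37 (SE 0.072, adjusted p = 0.0145 by limma), and the call was lost without control replicate 1 (0.0731), deficient replicate 1 (0.0595) or deficient replicate 3 (0.0643), and with all 18 samples in one fit (0.135). Controls of the Cox10 line had 1526, 1622 and 1563 and deficient lungs 1633, 1711 and 2642. The log2 fold change of 0.31 (-0.069 to 0.69; limma adjusted p = 0.457) fell to 0.090 (adjusted p = 0.454) without deficient replicate 3.

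Cdkn1a (chr17:29090976-29100727, plus strand) encodes p21, the inhibitor of cyclin-dependent kinases through which p53 halts the cycle. Its values were low and scattered, and it passed in no single line with all samples. Controls and deficient lungs had 136, 125 and 147 against 194, 156 and 143 in the Rptor line, where the groups overlapped (log2 fold change 0.27, -0.079 to 0.61). The Tfam line had 209, 219 and 224 against 339, 237 and 289, without overlap (0.39, 0.11 to 0.67; limma adjusted p = 0.129), and passed without deficient replicate 2 (0.53; adjusted p = 0.0469). For Cox10 the values were 153, 105 and 121 against 135, 129 and 275. There the log2 fold change of 0.43 (-0.25 to 1.11) rested on 1 sample and was 0.078 without deficient replicate 3.

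Trp53inp1 (chr4:11156431-11174379, plus strand) encodes a stress protein that promotes cell cycle arrest, autophagy and death. Rptor-line controls had 620, 717 and 589 normalised reads and deficient lungs 813, 1054 and 1087. Every deficient sample exceeded every control, with a log2 fold change of 0.61 (SE 0.12, adjusted p = 0.00670 by limma). The Tfam line gave 566, 526 and 547 in controls and 633, 572 and 643 in deficient lungs, a smaller separation without overlap (0.17, 0.0011 to 0.34; limma adjusted p = 0.283). Cox10-line values of 633, 607 and 594 in controls and 679, 602 and 870 in deficient lungs overlapped (0.21, -0.081 to 0.51), and the value was 0.065 without deficient replicate 3. Phlda3, which encodes a small protein that blocks AKT at the membrane, overlapped between groups in each line. Its control values ran from 666 to 954 and its deficient values from 853 to 1059 over the 3 lines, and its log2 fold changes were 0.24 (-0.070 to 0.55) for Rptor, 0.16 (-0.0029 to 0.32) for Tfam and 0.065 (-0.069 to 0.20) for Cox10.

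Fas (chr19:34290666-34327772, plus strand), the cell surface receptor that starts the extrinsic death pathway when it binds Fas ligand, had the largest log2 fold change of the 10 genes in each of the 3 lines. Rptor-line controls had 97.7, 76.9 and 68.6 normalised reads and deficient lungs 184, 183 and 162. The lowest deficient sample was well above the highest control, and the log2 fold change was 1.12 (SE 0.16, adjusted p = 0.00149 by limma). Tfam-line controls had 67.1, 55.6 and 63.0 and deficient lungs 79.4, 104 and 106. These groups did not overlap either, and the log2 fold change of 0.62 (0.26 to 0.99) missed the threshold (limma adjusted p = 0.0620), but passed without deficient replicate 1 (0.76; adjusted p = 0.0428). In the Cox10 line controls had 31.8, 46.4 and 52.0 and deficient lungs 71.9, 57.3 and 154. All 3 deficient samples were above all 3 controls, but 1 of them was far above the others. The log2 fold change was 1.00 (0.14 to 1.86; limma adjusted p = 0.344), and 0.58 (adjusted p = 0.340) without deficient replicate 3. The endothelial and leukocyte sums given above were also higher in Rptor-deficient lungs and in Cox10-deficient replicate 3 (leukocytes 3438 in that sample, against 1949 to 2547 in controls of the line). Their part in the Fas values was not tested.

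Pmaip1, Bbc3 and Bax encode NOXA, PUMA and BAX of the BCL2 family, which act at the mitochondrial outer membrane: NOXA and PUMA neutralise survival proteins, and BAX forms the pore that releases cytochrome c. Pmaip1 had 28.9, 17.0 and 23.9 normalised reads in Rptor-line controls and 46.9, 44.6 and 41.5 in deficient lungs. It thus rose from a very low level, with a log2 fold change of 0.93 (SE 0.25, adjusted p = 0.0199 by limma) that missed the threshold without control replicate 2 (0.0615) or deficient replicate 2 (0.0546). In the Tfam line its values were 26.4, 20.2 and 19.0 in controls and 17.9, 24.8 and 22.5 in deficient lungs (log2 fold change -0.0082, -0.57 to 0.56). In the Cox10 line they were 30.8, 18.2 and 26.98 against 23.0, 21.1 and 18.8 (-0.23, -0.87 to 0.40). Both of these lines had overlapping groups.

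Bbc3 overlapped between groups in each line, with 131 to 268 normalised reads in controls and 114 to 227 in deficient lungs. Its log2 fold changes were -0.066 (-0.42 to 0.28) for Rptor, -0.18 (-0.43 to 0.059) for Tfam and -0.14 (-0.61 to 0.33) for Cox10. Bax also overlapped in each line, with 1163 to 1943 in controls and 1433 to 1988 in deficient lungs, and its log2 fold changes were -0.15 (-0.34 to 0.039), 0.16 (-0.036 to 0.35) and -0.0053 (-0.12 to 0.11). Neither passed the threshold in any line with all samples, and Bax passed in the Tfam line without control replicate 3 (0.26; limma adjusted p = 0.0444). The widest interval, that of Bbc3 in the Cox10 line, leaves room for a log2 change of -0.61.

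**Figure D2:**
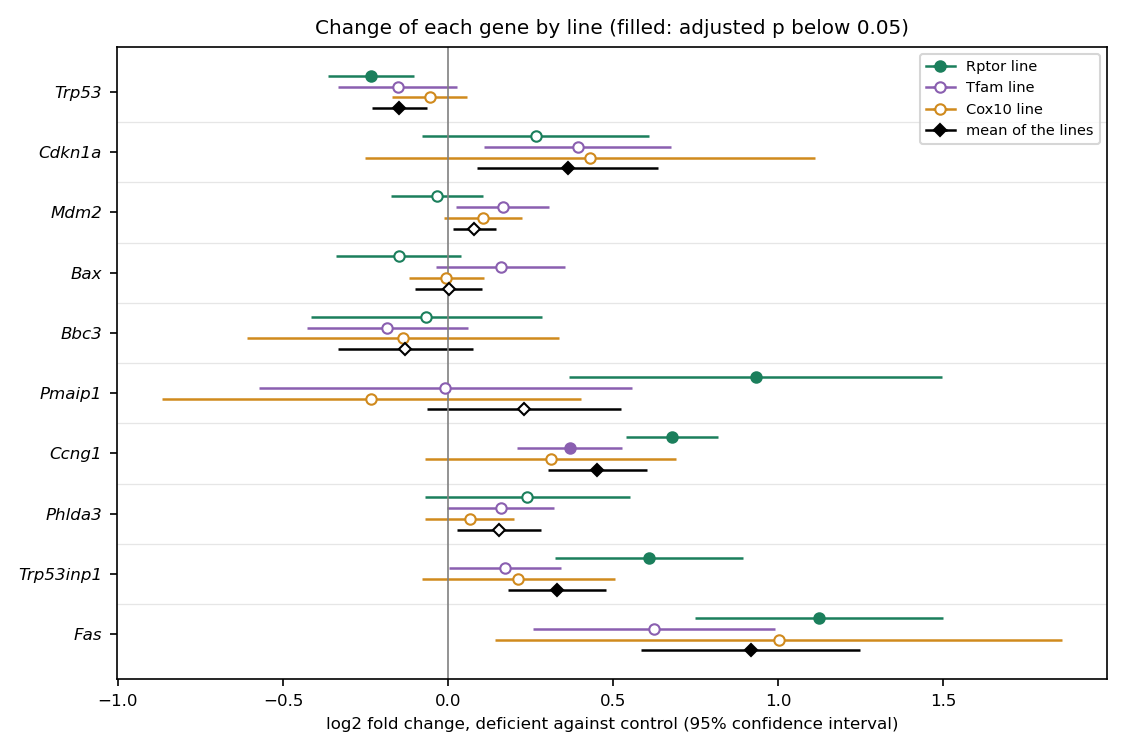
Log2 fold change of each gene (rows) in the Rptor, Tfam and Cox10 lines and for the mean of the 3 lines, with 95% confidence intervals; filled marks have a limma adjusted p below 0.05. Fas has the largest value in each line, Pmaip1 lies at 0.93 in the Rptor line and near or below 0 in the others, and Bax and Bbc3 cross 0 in each.

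The lines share no control sample, so the mean of their effects was tested over all 18 samples. Of the 10 genes 5 passed, where 37.1% of 14551 genes did: Fas (0.92, SE 0.16, adjusted p = 0.000271 by limma), Ccng1 (0.45, SE 0.071; adjusted p = 0.000113), Cdkn1a (0.36, SE 0.13; adjusted p = 0.0372), Trp53inp1 (0.33, SE 0.070; adjusted p = 0.00153) and Trp53 (-0.15, SE 0.040; adjusted p = 0.00835). The effects of Fas, Ccng1, Cdkn1a, Trp53inp1 and Phlda3 were above 0 in 3 of 3 lines. The call of Cdkn1a did not survive the removal of 1 sample in 10 of 18 cases, with adjusted p up to 0.0787. Phlda3 (0.15; limma adjusted p = 0.0516) and Mdm2 (0.079; adjusted p = 0.0556) lay just outside the threshold, and Phlda3 passed with the replicate number as a block (adjusted p = 0.0134) and on genes with a mean of at least 50 (0.0493). When 1 sample was left out, Phlda3 passed in 3 of 18 fits (down to 0.0128) and Mdm2 in 4 of 18 (down to 0.0319). Pmaip1 (0.23, -0.065 to 0.52), Bbc3 (-0.13, -0.33 to 0.075) and Bax (0.0015, -0.099 to 0.10) did not pass.

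A pass in 1 line and not in another does not show a difference, so the differences between lines were tested in the same fit. Pmaip1 was the only one of the 10 whose effect differed: it exceeded that in the Cox10 line by 1.16 (log2; 0.44 to 1.89; limma adjusted p = 0.0463) in the Rptor line, where 7.48% of all genes differed. That call was lost without low-value filtering (0.0670) and with the replicate block (0.0636). Against the Tfam line the Pmaip1 difference was 0.94 (0.22 to 1.66; limma adjusted p = 0.0836). Between the Rptor and Tfam lines 0 of 10 genes passed by limma (11.2% of all genes did), with 4 of 10 (Mdm2, Bax, Pmaip1 and Trp53inp1) at an unadjusted p below 0.05 (28% of all genes). With the replicate block the Bax effect was lower in the Rptor than in the Tfam line (-0.31; limma adjusted p = 0.0358). Between Tfam and Cox10 0 of 10 passed by limma (0.055% of all genes), with 0 of 10 at an unadjusted p below 0.05 (4.56% of all genes). Without Cox10-deficient replicate 3 the Rptor effect exceeded the Cox10 effect for Ccng1 (0.59; adjusted p = 0.000744, against 0.37 and 0.212 with it) and Trp53inp1 (0.54; adjusted p = 0.0259, against 0.40 and 0.176). With it left out, the Rptor effect also exceeded the Tfam effect for Ccng1 (0.31; adjusted p = 0.0244, against 0.256) and Trp53inp1 (0.44; adjusted p = 0.0441, against 0.108), with the same differences and a smaller estimate of spread. The Pmaip1 difference was then 1.09 (adjusted p = 0.0603).

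**Figure D3:**
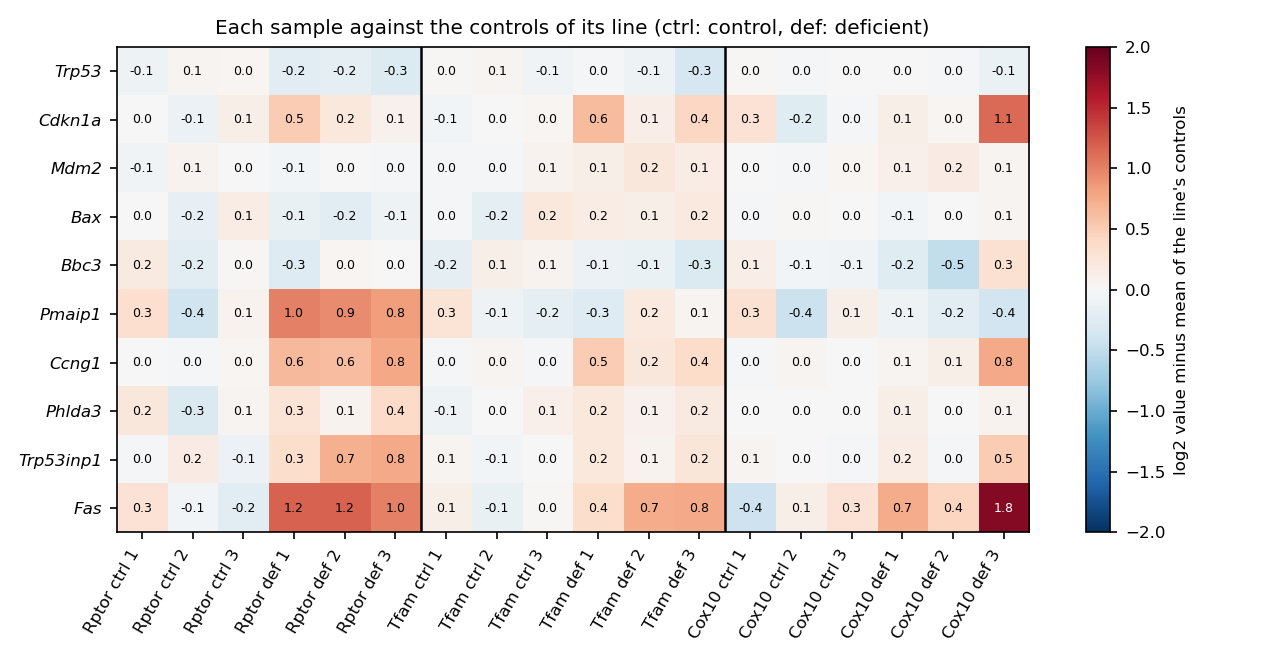
Log2 value of each gene (rows) in each of the 18 samples (columns) minus the mean of the controls of the same line; red is higher and blue lower, and cells print the difference. Cox10-deficient replicate 3 is the highest of its 6 samples for 6 of the 10 genes, and the 3 Rptor-deficient samples are red for Pmaip1, Ccng1, Trp53inp1 and Fas.

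Cox10-deficient replicate 3 had the highest value of the 6 Cox10 samples for 6 of the 10 genes and for 14 of 24 further p53 targets, against 30.7% of all genes tested in the line. Fas was 1.8 and Cdkn1a 1.1 above the control mean in this sample on the log2 scale. Its epithelial sum, 27834, was at the level of the controls (27322 to 27842), whereas the other Cox10-deficient samples had 18583 and 20748. The part of its cell composition in these values was not tested.

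Per kilobase of exon (GENCODE M21 gene models), the 10 genes covered a wide range in the 9 control samples. Trp53 had a median of 1590 normalised reads per kb and Bax 1061, followed by Phlda3 at 553, Ccng1 at 445 and Mdm2 at 296. Trp53inp1 had 91.7, Bbc3 81.2, Cdkn1a 41.4, Fas 30.6 and Pmaip1 8.74. Control ranges of Trp53 (1446 to 2367) and Bax (738 to 1233) did not overlap, while those of Cdkn1a (29.5 to 63.1) and Fas (15.4 to 47.4) did. The lines were scaled in separate tables, so these ranges include any difference of scale. The targets with the clearest rises thus included both an abundant transcript, Ccng1, and a scarce one, Fas.

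Other p53 targets moved both ways in the Rptor line. Of 24 tested, 4 were higher and 8 lower, with a median log2 fold change of -0.25, beside the 16.6% of all genes that were higher and the 18.2% that were lower. Dram1, an autophagy regulator, fell by 1.58 (limma adjusted p = 0.000180), Perp, a desmosome protein needed for death of some cells, fell by 1.11 (adjusted p = 0.0133), and Aen, an apoptosis nuclease, fell by 0.80 (adjusted p = 0.000234). Tfam-deficient lungs had 2 of 25 higher and 2 lower, beside 2.03% and 2.63% of all genes. Gdf15, a stress hormone that is also an ATF4 target, rose by 3.04 (limma adjusted p = 0.00283) from a mean of 3.03 to one of 32.6 normalised reads (n = 3 each). It met the filter only through the deficient samples, so the counts of 2 higher and of 25 tested rest in part on it. With no filter its adjusted p was 0.0037, and its value ran from 1.66 to 3.41 with the pseudocount. Dram1 fell by 0.33 (adjusted p = 0.0136). Gdf15 was below the filter in the other lines. In the Cox10 line 0 of 24 passed by limma (0.475% of all genes did), with 2 at an unadjusted p below 0.05 (13% of all genes). Without deficient replicate 3, 1 of 22 (Btg2, lower) passed, beside 1.72% of all genes. The count of 22 left out Pidd1 and Tigar, which are recorded under older symbols.

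Of the genes that act on p53, 1 of 20 rose and 5 fell in the Rptor line, where 34.8% of all genes passed, so the count is near the share of all genes. Rchy1, a ubiquitin ligase for p53, rose by 0.28 (limma adjusted p = 0.0133), while Hipk2, a kinase that activates p53, fell by 0.64 (adjusted p = 0.0152), Chek1, the checkpoint kinase, by 0.25 (adjusted p = 0.0111) and Npm1, a nucleolar protein, by 0.22 (adjusted p = 0.0359). By limma 0 of 20 passed with Tfam deleted and 0 of 20 with Cox10 deleted (4.66% and 0.475% of all genes did). At an unadjusted p below 0.05 there were 4 and 2, beside 17.4% and 13% of all genes. Mdm4, the partner of MDM2, changed by -0.025 in the Rptor line and by 0.11 and 0.11 (log2) in the Tfam and Cox10 lines (0.18 in the latter without deficient replicate 3), and none passed.

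Among BCL2 family genes that promote death, 2 of 7 rose and 2 fell in the Rptor line, beside 16.6% of all genes that were higher and 18.2% that were lower. Bcl2l11, which encodes BIM, rose by 1.04 (limma adjusted p = 2.16e-05) from 1871 to 3851 normalised reads, and Bmf rose by 0.85 (adjusted p = 0.000134), whereas Bid fell by 0.36 (adjusted p = 0.0302). Neither Bcl2l11 nor Bmf belongs to the p53 lists used here. In the Tfam line 2 of 8 rose, beside 2.03% of all genes, Bcl2l11 by 0.37 (limma adjusted p = 0.0134) and Hrk by 2.69 (adjusted p = 0.00775) from 4.05 ± 2.68 to 27.7 ± 3.74 (SD, n = 3). Hrk too met the filter only through the deficient samples, so the count of 2 rests in part on them. With no filter its adjusted p was 0.0106, and its value ran from 1.44 to 3.08 with the pseudocount. With Cox10 deleted Bcl2l11 had 0.39 (limma adjusted p = 0.302) and 0.23 without deficient replicate 3 (adjusted p = 0.109). In that line 0 of 7 passed by limma and 1 had an unadjusted p below 0.05, beside 0.475% and 13% of all genes. Of 5 survival genes, Bcl2 (0.27, limma adjusted p = 0.0181) and Bcl2l2 (0.20, adjusted p = 0.0334) rose in the Rptor line, where 16.6% of all genes were higher. By limma 0 of 5 passed in the Tfam and Cox10 lines (4.66% and 0.475% of all genes did). At an unadjusted p below 0.05 there were 3 and 2, beside 17.4% and 13% of all genes. Bcl2l1 had 0.013, -0.14 and 0.036 and Mcl1 -0.25, -0.13 and -0.12, and none passed.

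In the death receptor pathway 3 of 8 genes rose in the Rptor line, where 16.6% of all genes were higher. By limma 0 of 8 passed in the Tfam and Cox10 lines (4.66% and 0.475% of all genes did). At an unadjusted p below 0.05 there were 3 and 0, beside 17.4% and 13% of all genes. Tnfsf10, which encodes the ligand TRAIL, rose by 1.04 (limma adjusted p = 0.0154), with 0.39 and 0.66 in the Tfam and Cox10 lines that did not pass. The Cox10 value rested on 1 sample and was 0.10 without deficient replicate 3. Cflar, an inhibitor of caspase-8 activation, rose by 0.40 (adjusted p = 0.00208) and Tnfrsf1a, a TNF receptor, by 0.31 (adjusted p = 0.00277). Fasl, the ligand of Fas, was below the filter in each line. Of 16 caspase and apoptosome genes, 1 rose and 3 fell in the Rptor line (16.6% and 18.2% of all genes did). In the Tfam and Cox10 lines 0 passed by limma, with 1 in each at an unadjusted p below 0.05 (17.4% and 13% of all genes). Cycs (cytochrome c) fell by 0.67 (limma adjusted p = 0.000786) and Aifm1, a mitochondrial flavoprotein, by 0.20 (adjusted p = 0.0452, and 0.0565 with the replicate block), and Birc2, an inhibitor of apoptosis, rose by 0.32 (adjusted p = 0.0058). Apaf1, the core of the apoptosome, had 0.081 in the Rptor line and 0.051 and 0.033 in the others, none past the threshold.

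Genes of cycling cells were lower in Rptor-deficient lungs: 11 of 12 fell (median -0.38), where 18.2% of all genes were lower, led by Bub1 (-0.48), Plk1 (-0.41), Mcm2 (-0.40) and Ccnb1 (-0.40). By limma 0 of 12 passed with Tfam deleted and 0 of 12 with Cox10 deleted (medians -0.10 and -0.096), where 4.66% and 0.475% of all genes did. At an unadjusted p below 0.05 there were 4 and 1, beside 17.4% and 13% of all genes. The difference between lines was not tested for this list. Of 5 CDK inhibitors other than p21, Cdkn1c rose by 0.45 (limma adjusted p = 0.0108) and Cdkn1b, which encodes p27, by 0.28 (adjusted p = 0.0159) in the Rptor line, where 16.6% of all genes were higher. Cdkn1b had -0.043 and 0.11 in the Tfam and Cox10 lines (0.033 in the latter without deficient replicate 3). There 0 of 5 and 0 of 4 inhibitors passed by limma, with 1 and 0 at an unadjusted p below 0.05 (17.4% and 13% of all genes).

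Of 12 genes of the integrated stress response, driven by ATF4 and its partner CHOP (Ddit3), 7 rose in Tfam-deficient lungs, where 2.03% of all genes were higher, with Chac1 at 3.47 (limma adjusted p = 3.3e-07), Trib3 at 2.20 (adjusted p = 3.2e-05), Asns at 1.57 (adjusted p = 3.3e-07) and Atf5 at 1.28 (adjusted p = 8.94e-06). In the Cox10 line, where 0.475% of all genes passed, 1 of 12 rose, Trib3 (1.24, limma adjusted p = 0.0312). Chac1 had 1.87 (adjusted p = 0.0607) and Asns 0.60 (adjusted p = 0.0544) there. Without deficient replicate 3, Chac1 (1.63; limma adjusted p = 0.0470), Asns (0.64; adjusted p = 0.0247) and Trib3 (adjusted p = 0.0223) passed, 3 of 12 where 1.72% of all genes did. When the 18 samples were fitted together, Chac1 (limma adjusted p = 0.00036) and Asns (0.00277) passed and Trib3 did not (0.0674). In the Rptor line 3 rose and 3 fell, beside 16.6% and 18.2% of all genes, among them Asns (-0.75; limma adjusted p = 0.00156) and Ddit3 (0.44; adjusted p = 0.0417). The Ddit3 call was lost with the replicate block (0.0511) and without low-value filtering (0.0549). It had 0.34 and 0.21 in the Tfam and Cox10 lines, which did not pass, although the Tfam value did without control replicate 3 (0.49; limma adjusted p = 0.0292).

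**Figure D4:**
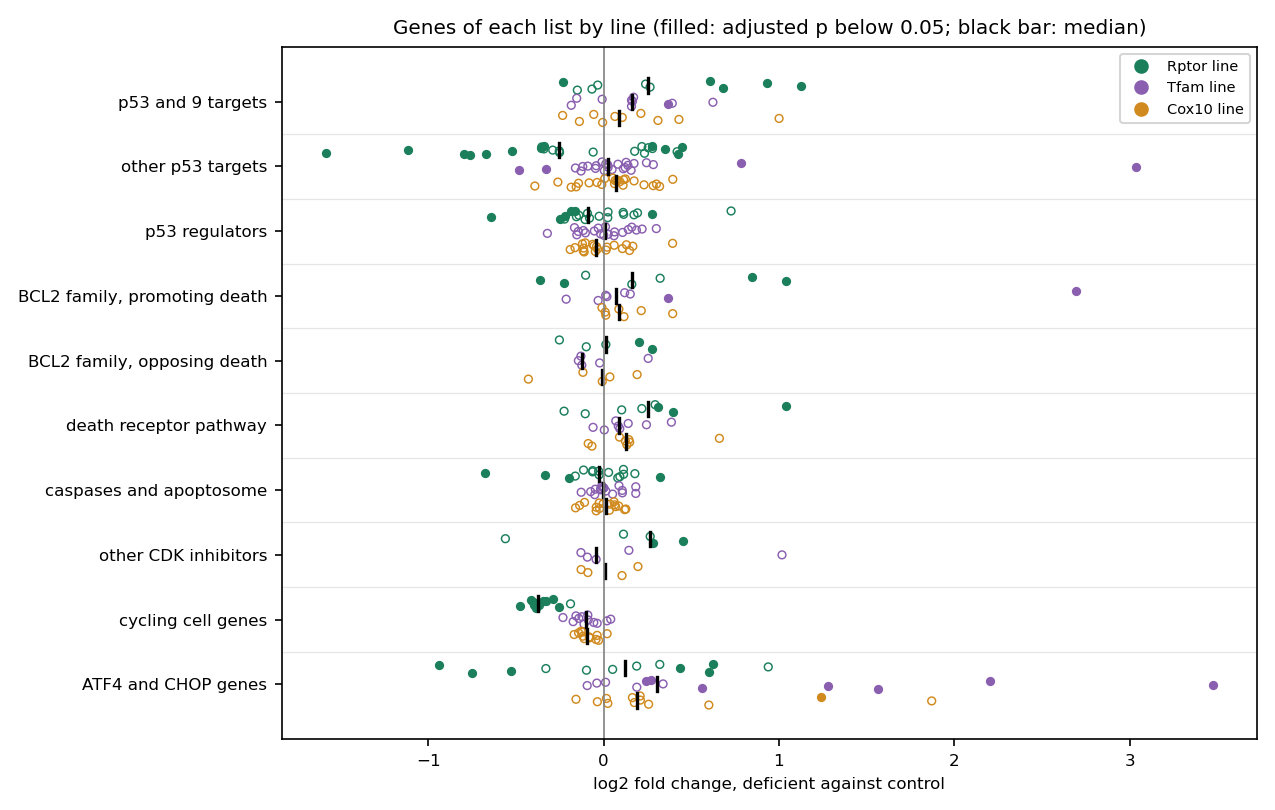
Log2 fold change of single genes (points) in each list and line, with the median as a black bar and a limma adjusted p below 0.05 as filled points. The other p53 targets spread to both sides of 0 in the Rptor line, cycling cell genes lie at or below -0.19 there, and ATF4 and CHOP genes reach 3.47 in the Tfam line.

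Of the calls named in these lists, 14 of 35 were lost when 1 sample was left out: Aifm1, Bcl2, Bcl2l2, Bid, Cdkn1b, Ddit3, Hipk2, Npm1, Perp, Rchy1 and Tnfsf10 in the Rptor line, Bcl2l11 and Dram1 in the Tfam line and Trib3 in the Cox10 line. Gdf15 and Hrk of the Tfam line, counted among the calls kept, could be tested in only 3 of their 6 fits, those that left out a control. Fitting the 18 samples together also ended the calls of Npm1 in the Rptor line (limma adjusted p = 0.0677) and of Bcl2l11 (0.0636) and Dram1 (0.377) in the Tfam line, and Bcl2l11 then passed with Cox10 deleted (0.0497).

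With log2 values centred within each line, the genes varied unevenly over the 18 samples, with Pmaip1 left out because its mean was below 50. Ccng1, Trp53inp1 and Fas ran together (Pearson r 0.872 for Ccng1 with Trp53inp1, 0.869 for Ccng1 with Fas and 0.781 for Trp53inp1 with Fas). Cdkn1a and Phlda3 did so less (0.665 and 0.483 with Fas), and Trp53 ran against Fas (-0.740). Mdm2 (0.270), Bbc3 (0.0066) and Bax (-0.029) were only weakly related to Fas. Among the 12954 genes with a mean of at least 50 compared with Fas, those most like it were Kit (0.923), Adamts10 (0.922), Glp1r (0.921), Ctso (0.921) and Acvrl1 (0.918), and Ccng1 ranked 89 among them. The samples of these correlations share a genotype, a line and their libraries, so the values are descriptions and carry no test.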

How the data were processed

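Bulk RNA-seq of whole lungs at 14.5 dpc was used, with 3 samples in each of 6 groups named from the sample titles. Per the methods, RNA was extracted with TRIzol and an RNeasy column and sequenced on a BGISEQ-500, while the labels name an Illumina library protocol. The submitters' processing notes list Trim Galore, HISAT2, featureCounts, DESeq2 and the build mm10, without versions. The authors deposited normalised read counts, used here as a signal: every value of a sample was a whole multiple (tolerance 0.01) of a step of 0.978 to 1.02. The tables also hold the authors' own fold changes and p-values, which were not used. Strand of the counting is not given in the sources used here, so reads of overlapping genes on opposite strands could not be told apart. A spreadsheet had turned 27 gene names into dates.

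Values were analysed as log2(value + 1) in limma 3.58.1 (R 4.3.3; lmFit, eBayes with a trend), on genes with a value of at least 10 in at least 3 of 6 samples of a line, with Benjamini-Hochberg adjustment over all genes tested. Fold changes are on this scale and understate those of low genes. All tests were two-sided, and the scripts were tested on simulated data. The mean effect and the differences between lines came from 1 fit of 18 samples to those 14551 genes that passed the filter in each line. The design had foreseen count tests on recovered reads, and they were not run because the step of most samples lay too near 1 for the recovery to be checked. Gene positions and exon lengths were from GENCODE M21 (GRCm38, the build of mm10).

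The 10 genes, the other gene lists and the naming rule were chosen with earlier results of these data known. Outside the 10 genes, up to 4 genes of each list past the threshold with the largest change in any line were named, and in addition Mdm4, Ddit3, Bcl2l1, Mcl1, Apaf1 and Cdkn1b; one gene that the rule names is not reported here. The lists, taken from general knowledge, were other p53 targets, p53 regulators, BCL2 family genes promoting and opposing death, death receptor genes, caspases and apoptosome, CDK inhibitors, cycling cell genes, ATF4 and CHOP genes, and cell type markers. Of the marker lists not described in the results, 4 of 6 mesothelial markers were higher in the Rptor line, where 16.6% of all genes were. In the Tfam line 1 of 5 cardiac muscle markers was higher, where 2.03% of all genes were. By limma 0 of 6 erythroid and 0 of 6 neural markers passed in each line, with at most 1 at an unadjusted p below 0.05.

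In the Rptor line samples with the same replicate number deviated together (correlations over genes of 0.221, 0.330 and 0.259). This is a hint of pairing from the data and not from the design. The main tests did not use the numbers, which were taken from the titles. The replicate block was run only as an alternative. Normalised totals of 27727202 to 29611064 per sample limit the precision of low genes such as Pmaip1 and Fas. Alternatives were TMM scaling (30% of M and 5% of A trimmed), pseudocounts of 0.1 and 10, no filter, a mean of at least 50, the replicate block, all 18 samples in one fit and each sample left out. The gene lists of the Cox10 line were also counted without deficient replicate 3, a choice made after seeing the data.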

Additional observations from a re-analysis of the deposited data

Results flagged for a closer look

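The effect of Pmaip1 was the only one among the 10 genes that differed between lines by a test of the difference itself. Of all genes 7.48% differed between the Rptor and Cox10 lines, so 1 of 10 is near the share of all genes. The Pmaip1 effect was 1.16 higher on the log2 scale in the Rptor line than in the Cox10 line (95% confidence interval 0.44 to 1.89; limma adjusted p = 0.0463). The 3 Rptor-deficient samples had 46.9, 44.6 and 41.5 normalised reads and the 3 Cox10-deficient samples 23.0, 21.1 and 18.8. The call was lost in 13 of 18 fits that each left out a sample, with values of 0.96 to 1.38 and adjusted p up to 0.129.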

How the results depend on the processing

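Among the 10 genes, the counts past the threshold in the Rptor and Cox10 lines and for the mean effect stayed within 1.5 times under TMM scaling, other pseudocounts, other filters and the replicate block. With all 18 samples in one fit, 0 of the 10 genes passed in the Tfam line, and genes past the threshold numbered 399 for Tfam and 327 for Cox10. No gene among the 10 differed between the Rptor and Cox10 lines with a mean of at least 50 (0, since Pmaip1 is below it), with no filter (0) or with the replicate block (0), and 1 (Bax) differed between Rptor and Tfam with the block. The cause was not tested. Bax reversed for the mean effect under TMM scaling (-3.4e-05).

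The replicate block gave 5768 genes in the Rptor line, where it kept 5 of the 10 genes, and otherwise changed no call among them in single lines. Correlations of samples with the same number ran from -0.31 to 0.15 in the Tfam line (mean -0.12). They ran from 0.049 to 0.45 in the Cox10 line (mean 0.23, beside 0.27 in the Rptor line). In the Tfam and Cox10 lines the block gave 802 and 48 genes. With it Trib3 of the Cox10 line missed the threshold (adjusted p = 0.0566) and Asns passed (0.0391). Without low-value filtering the Aifm1 call in the Rptor line was lost (0.0553).

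Leaving out 1 sample gave 3555 to 5315 genes in the Rptor line, 354 to 1114 for Tfam and 3 to 255 for Cox10 (255 without deficient replicate 3, 3 without control replicate 1 or 3, 5 without control replicate 2 and 32 without deficient replicate 2). In the Tfam line it was 1114 without control replicate 3, 357 without control replicate 1, and 441, 418 and 354 without deficient replicates 1, 2 and 3. Of the 10 genes, 3 to 5 passed in the Rptor line (3 without control replicate 2), 0 to 2 in the Tfam line, 0 in the Cox10 line and 4 to 6 for the mean effect. Between lines 0 to 2 differed for Rptor against Cox10, 0 to 2 for Rptor against Tfam and 0 for Tfam against Cox10. Log2 fold changes that crossed 0, none of them called, ran from -0.035 to 0.020 for Bax in the Cox10 line and -0.029 to 0.035 for its mean effect, from -0.36 to 0.038 and -0.17 to 0.030 for Bbc3 in the Cox10 and Rptor lines, from -0.071 to 0.0051 for Mdm2, -0.016 to 0.048 for Bcl2l1 and -0.14 to 0.060 for Mdm4 in the Rptor line, and from -0.11 to 0.13 for Pmaip1 in the Tfam line.

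The planned tests by edgeR and DESeq2 were not run, because the step of most samples lay too near 1 for the recovery of reads to be checked. With 3 samples a group, the interval of a scarce transcript such as Pmaip1 was wide (-0.87 to 0.40 in the Cox10 line), so small changes could be missed.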
